A study of Mus musculus with 86 samples.

Results

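The RNAs of 31 genes for heterogeneous nuclear ribonucleoproteins (hnRNPs) and serine/arginine-rich splicing factors (SR proteins) were followed in the soma and the neurites of mouse neuronal cells that kept or lost TDP-43. The genes were chosen by name and not by their values, though with earlier results of these data known. They comprise 20 hnRNP genes (Hnrnpa0, a1, a2b1, a3, ab, c, d, dl, f, h1, h2, h3, k, l, ll, m, r, u, ul1 and ul2) and 11 SR genes (Srsf1 to Srsf7 and Srsf9 to Srsf12), out of 53664 annotated genes with a quantified transcript. The question was whether these relatives and partners of TDP-43 change in level, in isoform or in localization when TDP-43 is lost. CAD cells are a mouse catecholaminergic neuronal line, and N2A cells are a mouse neuroblastoma line. In both lines the endogenous Tardbp alleles had been inactivated with CRISPR/Cas9, in wild-type and knockout groups alike. TDP-43 came from a single integrated HA-tagged transgene with the 3′ UTR of TDP-43 and a promoter that doxycycline turns off (labelled TetOff TDP-43), in lines grown from screened single-cell clones. Wild-type cells received no doxycycline, and knockout cells received it for 48 h. The labels and the methods give different doses, 2 µg/mL in the labels, and since only knockout cells received doxycycline, its own effect cannot be told apart from that of TDP-43 loss. A further experiment used CAD cells with a single-copy, doxycycline-induced HA-tagged transgene for wild-type TDP-43 or for TDP-43 with the Q331K mutation, which is associated with amyotrophic lateral sclerosis. Both of its groups received doxycycline, and per the methods autoregulation lowered their endogenous TDP-43. Soma and neurites were separated on porous membranes after serum withdrawal, and polyadenylated RNA was sequenced from 3 cultures per group, 4 groups and 12 libraries per experiment. Nothing states how independent the 3 cultures were, so p-values measure only the spread between these samples.

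TDP-43 belongs to the hnRNP family. It binds GU-rich RNA, represses cryptic exons and lowers its own RNA through its 3′ UTR. The other hnRNPs coat nascent RNA, often repress the use of nearby splice sites and act in export, transport and decay of mRNA, while SR proteins mostly promote exon use. Many genes of both families limit their own expression by producing isoforms with a poison exon or a retained intron that nonsense-mediated decay removes or the nucleus keeps.

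In CAD and N2A cells, Tardbp RNA fell in knockout cells in every comparison. Its level, in CPM (counts scaled to a common library size, with TMM factors), was 514, 569 and 526 in wild-type CAD soma against 92.6, 90.3 and 98.2 in knockout soma. It was 535, 501 and 490 CPM against 150, 134 and 129 CPM in CAD neurites. In N2A cells it was 545, 601 and 590 CPM against 160, 167 and 178 CPM in soma, and 694, 664 and 688 CPM against 265, 264 and 243 CPM in neurites. The groups did not overlap, and the log2 changes of -2.52, -1.89, -1.78 and -1.41 had adjusted p-values of 3.33e-12, 3.91e-11, 2.58e-09 and 1.6e-08 in edgeR's quasi-likelihood test. The reads do not separate transgene RNA from that of the cut alleles. Libraries held 25009904 to 32895542 estimated counts in CAD cells, 22726534 to 31911030 in N2A cells and 9783050 to 15870647 in the Q331K experiment. All 31 genes were tested among 17343 genes in CAD cells and among 13940 in the Q331K experiment, and 30 were tested among 17912 in N2A cells, where Srsf12 stayed at 0 to 0.384 CPM. The neuronal markers summed to 1060 to 3170 CPM in the groups, with Nefm under 1 CPM in all of them, the glial markers to 4.7 to 15.1 CPM and the fibroblast markers to 1.34 to 25.3 CPM. Mitochondrial RNA took 13.9 to 22.3% of the counts in CAD neurites and 4.19 to 7.01% in CAD soma, so soma and neurites are compared in CPM only. In fractions of many cells, fewer cells of a kind and less RNA per cell cannot be told apart.

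In CAD soma, 3 hnRNP genes rose and 1 fell in knockout cells, and none of the 11 SR genes passed the threshold, which was a false discovery rate of 0.01. That is 4 of 31 genes, while 22.8% of all 17343 genes passed in either direction, 11.2% higher and 11.6% lower. The median log2 change was 0.021 over the 31 genes and 0.0023 over all genes. Hnrnpm, which encodes a splicing regulator, went from 129, 126 and 130 CPM in wild-type soma to 157, 179 and 164 CPM in knockout soma. Every knockout culture lay above every wild-type culture, and the log2 change was 0.38 (SE 0.0619, edgeR adjusted p = 0.000186). Hnrnph3, of the hnRNP H/F family that binds G-rich RNA, went from 14.1, 13.9 and 14.4 CPM to 18.3, 17 and 17.6 CPM, again without overlap, a log2 change of 0.32 (SE 0.0678, edgeR adjusted p = 0.00167). Hnrnpa2b1, whose protein packages RNA and takes part in the transport of neuronal mRNAs, went from 343, 374 and 368 CPM to 415, 460 and 454 CPM, a log2 change of 0.29 (SE 0.0732, edgeR adjusted p = 0.00559). Hnrnpa3, a close relative of Hnrnpa1 and Hnrnpa2b1, went the other way, from 398, 458 and 431 CPM to 318, 361 and 349 CPM. Its log2 change of -0.32 (SE 0.0773, edgeR adjusted p = 0.00392) came from groups that did not overlap, and its isoforms and a pseudogene are described further on. When the libraries of replicate 2 were left out, no member passed, and Hnrnpm then had an adjusted p of 0.0429 in edgeR. The calls of the other 3 genes were lost whichever replicate number was left out, with edgeR adjusted p-values of 0.0164 to 0.101 and the same direction. The 11 SR genes had log2 changes between -0.28 and 0.19.

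In CAD neurites, 7 of the 31 genes rose and none fell, 6 of them hnRNP genes and 1 an SR gene. Among all 17343 genes 25.3% passed, 11.8% higher and 13.5% lower, and the median log2 change was 0.094 over the 31 genes and 0.004 over all. Hnrnpm rose from 163, 154 and 154 CPM to 221, 221 and 210 CPM (log2 change 0.47, SE 0.0621, edgeR adjusted p = 2.04e-05). Hnrnpa2b1 rose from 473, 482 and 461 CPM to 669, 684 and 592 CPM (log2 change 0.46, SE 0.0733, edgeR adjusted p = 0.000129). Neither gene's groups overlapped, and these were the largest rises among the 7. Hnrnpd encodes AUF1, which binds AU-rich elements and regulates mRNA decay. It went from 95, 101 and 85.8 CPM to 113, 132 and 123 CPM, a log2 change of 0.38 (SE 0.0745, edgeR adjusted p = 0.000705) that rests on 1 transcript, described with the isoforms. Hnrnph3 rose from 27.3, 27.4 and 26.5 CPM to 33.8, 37.1 and 34.4 CPM (log2 change 0.37, edgeR adjusted p = 0.000323). Its paralog Hnrnph1 rose from 362, 354 and 379 CPM to 470, 440 and 414 CPM (log2 change 0.27, edgeR adjusted p = 0.00575). Hnrnpc, whose protein binds U-rich tracts of nascent RNA, rose from 185, 200 and 194 CPM to 247, 250 and 232 CPM (log2 change 0.33, edgeR adjusted p = 0.00142). Srsf5, the SR gene of this group, rose from 197, 186 and 171 CPM to 247, 240 and 218 CPM (log2 change 0.35, edgeR adjusted p = 0.00112). In each of these genes the lowest knockout culture lay above the highest wild-type culture. Hnrnpm passed whichever replicate number was left out, whereas the other 6 did not pass without replicate 2, with edgeR adjusted p-values of 0.0125 to 0.128. Hnrnpd and Hnrnpc also failed without replicate 3 (0.017 and 0.0136), and Hnrnph1 without replicate 1 or 3 (0.0422 and 0.0128).

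**Figure D1:**
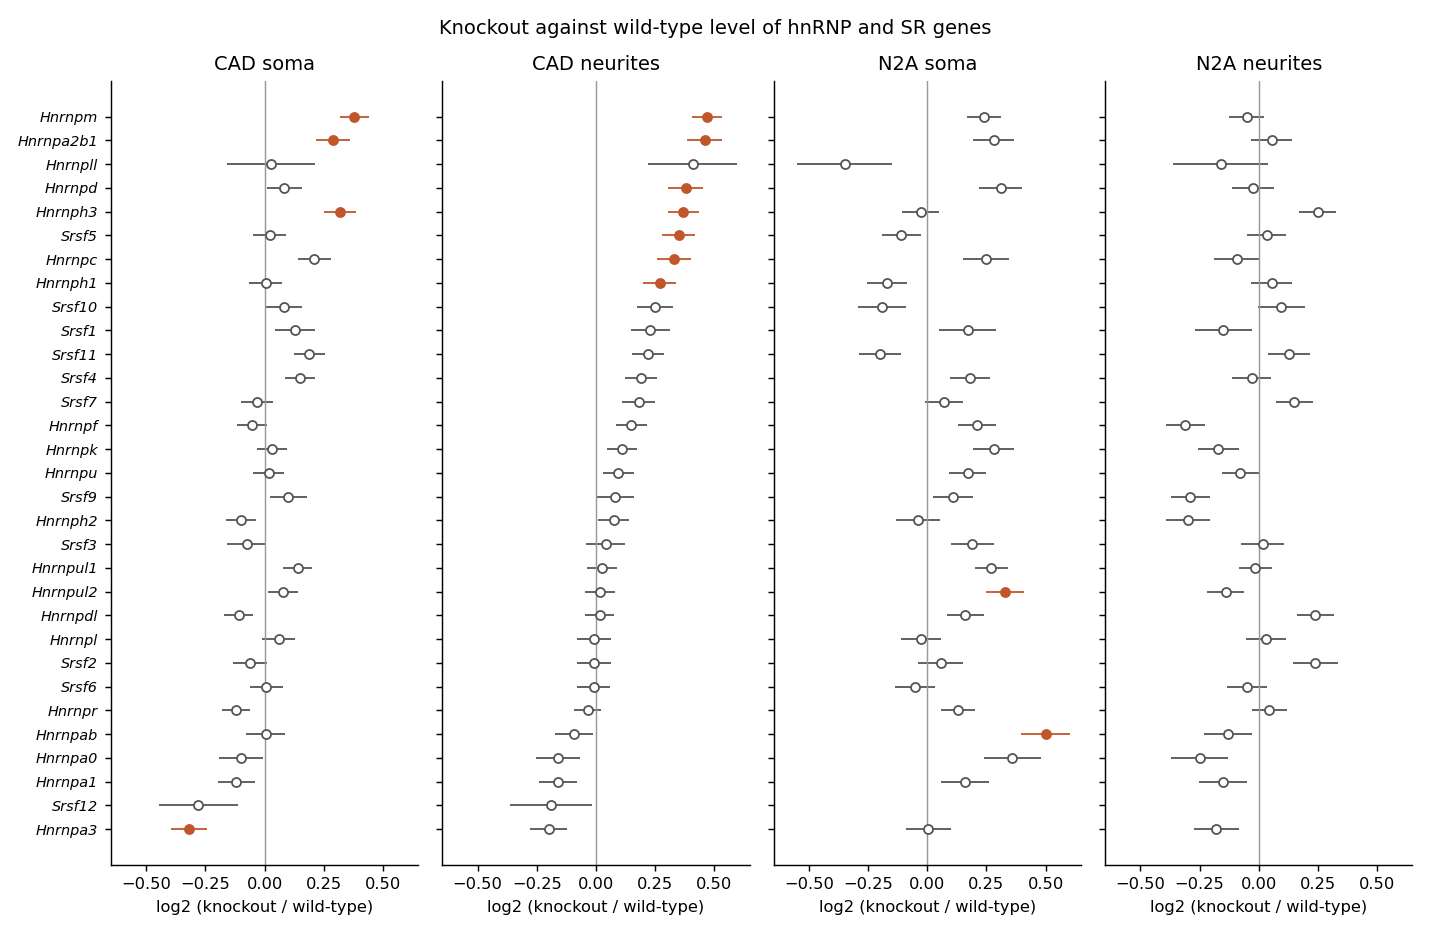
Log2 ratio of the knockout to the wild-type level for each of the 31 genes in soma and neurites of CAD and N2A cells, from edgeR (n = 3 cultures per group, bars are 1 SE, genes ordered by their value in CAD neurites, Srsf12 not tested in N2A cells). Filled orange points passed the false discovery rate of 0.01, which were 4 genes in CAD soma, 7 in CAD neurites, 2 in N2A soma and none in N2A neurites.

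In N2A soma, Hnrnpab and Hnrnpul2 rose and no gene fell, 2 of 30 genes against 16.1% of all 17912 genes (10.9% higher, 5.15% lower). The median log2 change was 0.16 over the 30 genes and -0.024 over all. Hnrnpab encodes an A/B-type hnRNP, also known as CBF-A, that takes part in mRNA transport. It rose from 286, 335 and 341 CPM to 384, 489 and 492 CPM (log2 change 0.50, SE 0.102, edgeR adjusted p = 0.00203). Hnrnpul2, an hnRNP U-like gene, rose from 117, 132 and 122 CPM to 149, 160 and 157 CPM (log2 change 0.33, SE 0.0798, edgeR adjusted p = 0.00701). Neither gene's groups overlapped. The replicate numbers paired these soma libraries, and with the number as a block in edgeR 5 genes passed, all higher, against 18.8% of all genes (12.2% higher). The added genes were Hnrnpd, from 59, 70.6 and 68.6 CPM to 75.9, 87.1 and 82.7 CPM (log2 change 0.31, adjusted p = 0.00746 with the block and 0.0176 without), Hnrnpa0 (0.36, adjusted p = 0.00536 and 0.0385) and Hnrnpul1 (0.27, adjusted p = 0.00935 and 0.0106). Without replicate 2, Hnrnpab and Hnrnpul2 had edgeR adjusted p-values of 0.0576 and 0.0758, and without replicate 3 these were 0.0198 and 0.028. Without replicate 1, Hnrnpab passed and Hnrnpul2 had an edgeR adjusted p of 0.0168. In N2A neurites none of the 30 genes passed, against 11.6% of all genes. There 6 genes had an unadjusted edgeR p under 0.05, as did 32.3% of all genes, and log2 changes ran from -0.31 to 0.25. DESeq2 called 3 genes lower, Srsf9, Hnrnpf and Hnrnph2, and 9.37% of the 14780 genes to which it gave an adjusted p. Mitochondrial RNA took 3.82 to 6.79% of the counts in wild-type and 8.54 to 14% in knockout N2A neurites, and its part in these values was not tested.

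The genes called in CAD cells had mixed values in N2A cells. In N2A soma, Hnrnpm went from 189, 208 and 190 CPM to 215, 239 and 239 CPM, with no overlap and a log2 change of 0.24 (edgeR adjusted p = 0.0225). Hnrnpa2b1 was at 344, 411 and 423 CPM in wild-type and 443, 488 and 494 CPM in knockout N2A soma, a log2 change of 0.28 (edgeR adjusted p = 0.0293). In N2A neurites Hnrnpm was at 333, 324 and 308 CPM against 318, 305 and 308 CPM, and the groups overlapped. Hnrnph3 in N2A neurites was at 22.5, 23.4 and 22.2 CPM against 27.8, 28 and 25.2 CPM, a log2 change of 0.25 (edgeR adjusted p = 0.0314). Hnrnpa3 had log2 changes of 0.0047 in soma and -0.18 in neurites of N2A cells, and Srsf5 of -0.11 and 0.034, none past the threshold. Conversely, the log2 changes in CAD cells were 0.0044 in soma and -0.092 in neurites for Hnrnpab and 0.078 and 0.018 for Hnrnpul2. The difference between the lines was tested on its own for every gene, and passed for 10.5% of all genes in soma and 9.18% in neurites. Of the 31 genes it passed for 2 in soma and 1 in neurites, which are given among the results for a closer look.

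The Localization Ratio (LR), the log2 of a gene's neurite level over its soma level, was then compared between knockout and wild-type cells. In CAD cells none of the 31 genes passed the threshold, against 0.432% of all genes. Their LR changes ran from -0.11 to 0.39, 5 had an unadjusted edgeR p under 0.05, against 10.5% of all genes, and DESeq2 called none. In N2A cells none of 30 passed in edgeR, against 0.1% of all genes. There the median LR change was -0.21 over these genes and -0.01 over all genes. Of the 30, 14 had an unadjusted edgeR p under 0.05, against 31.2% of all genes. DESeq2 called 9, all with a lower LR in knockout cells (Hnrnpa0, ab, f, k, m, u, ul1 and ul2, and Srsf9). It called 1565 genes lower in all, 19.1% of the 8188 to which it gave an adjusted p, out of 17912 in the fit.

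Single transcripts moved further than the gene sums. Of 207 tested transcripts of the 31 genes in CAD neurites, 11 rose and 3 fell (6.76%, against 5.48% of all 49076 transcripts, 2.65% higher and 2.82% lower). In CAD soma 5 rose and 3 fell (3.86%, against 4.15%, 2.26% higher and 1.89% lower), and in N2A soma 6 of 214 rose and none fell (2.8%, against 3.05% of 49496, 2.62% higher and 0.428% lower). In N2A neurites none of 214 passed in edgeR, against 1.72%, with 35 at an unadjusted p under 0.05, against 18.2% of all. DESeq2 called 11 there, and 6.37% of the 41604 transcripts to which it gave an adjusted p. The tests took each transcript's estimated count as given, so the uncertainty of assigning reads to overlapping isoforms is not in their p-values.

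The largest change was that of Hnrnpd-211, a protein-coding Hnrnpd isoform (ENSMUST00000172361) of 6811 nt in 9 exons, on chr5:99955935-99978938 of GRCm38, minus strand. In CAD neurites its level was 0.917, 1.19 and 1.15 CPM in wild-type cells and 31.6, 39.6 and 35.4 CPM in knockout cells. The lowest knockout culture was far above the highest wild-type culture, and the log2 change was 5.03 (SE 0.193, edgeR adjusted p = 2.31e-07). The change stayed between 5.01 and 5.08 when each replicate number was left out, and passed each time. In CAD soma the level went from 2.34, 1.64 and 1.69 CPM to 5.78, 4.84 and 5.31 CPM, a log2 change of 1.49 (SE 0.166, edgeR adjusted p = 3e-04). Without replicate 2 or 3, the soma change had edgeR adjusted p-values of 0.0327 and 0.0395. The isoform was thus lower in neurites than in soma in wild-type cultures and higher in neurites in knockout cultures, and its LR change of 3.54 (SE 0.242) passed with an edgeR adjusted p = 9.27e-05, when 0.0795% of all transcripts did. That LR test was chosen after the transcript's values were seen.

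In N2A neurites Hnrnpd-211 was at 0.364, 1.04 and 0.668 CPM in wild-type cells and at 4.23, 4.55 and 1.85 CPM in knockout cells. The groups did not overlap, but the log2 change of 2.35 (SE 0.527) had an edgeR adjusted p of 0.0319, and DESeq2 called it. In N2A soma it was at 2.5, 0.88 and 1.05 CPM against 4.39, 3.82 and 3.16 CPM (log2 change 1.36, edgeR adjusted p = 0.138). The LR change in N2A cells was 0.99 (edgeR adjusted p = 0.481, with 0.0283% of all transcripts called). With the Q331K transgene, Hnrnpd-211 was at 0.258, 1.03 and 0.619 CPM in neurites, within the range of the wild-type transgene at 0.367, 0.747 and 1.45 CPM except for the lowest culture.

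The other Hnrnpd transcripts together did not follow. They summed to 97.8, 107 and 91.3 CPM in wild-type and 89.5, 102 and 95.3 CPM in knockout CAD neurites, with overlapping groups. Hnrnpd-211 made up 0.198% ± 0.0291 (SD, n = 3) of the gene's TPM, a level per transcript length, in wild-type CAD neurites and 6.42% ± 0.278 (SD, n = 3) in knockout CAD neurites. When its reads were left out of the gene sum, an alternative chosen after seeing the data, the log2 change of Hnrnpd in CAD neurites was -0.055 (SE 0.0739, edgeR adjusted p = 0.609) in place of 0.38. With counts scaled for transcript length it was 0.0058 (edgeR adjusted p = 0.972).

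**Figure D2:**
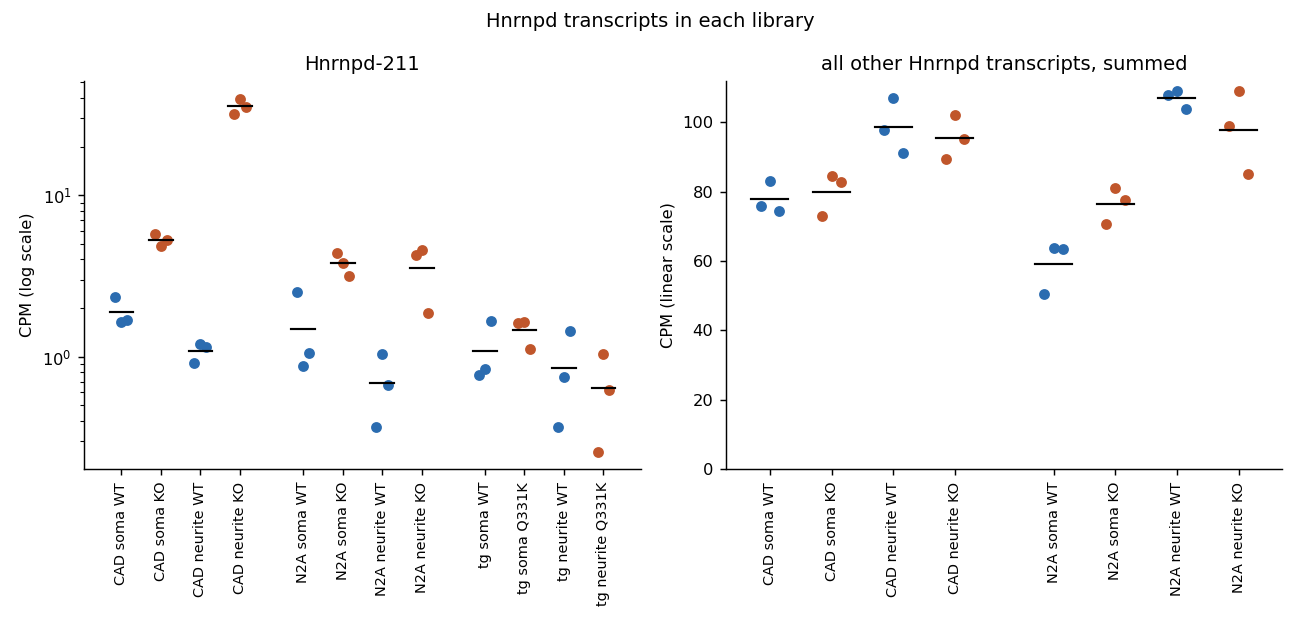
Level in CPM of Hnrnpd-211 (left, log axis) in each library of the CAD, N2A and transgene (tg) experiments, and of all other Hnrnpd transcripts summed (right, linear axis) in the CAD and N2A libraries. Points are cultures (blue with wild-type TDP-43, orange knockout or Q331K) and bars are means of 3, and Hnrnpd-211 in knockout CAD neurites sits at 31.6 to 39.6 CPM, above every other library.

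Hnrnpd-211 has a 3′ UTR of 5429 nt, against 766 nt in Hnrnpd-201, and 1065 coding bases against 918. It runs on past the last exon shared with Hnrnpd-201 (chr5:99960598-99961333, 736 nt) into an extension at chr5:99955935-99960597 (4663 nt), all of it annotated as 3′ UTR. No other annotated gene overlaps the extension, and 43 of its 4598 31-base words (0.935%) occur in another gene's transcripts. The GU-rich pentamer GTGTG, its shifted form TGTGT and the variant GTATG, counted on the transcript strand with overlaps, occur 60 times in the extension (12.9 per kb) and 4 times in the shared exon (5.43 per kb). The 3 stretches of 30 bases of the extension with most of these pentamers are shown because Hnrnpd-201 lacks the extension, with pentamer bases in capitals. Stretch 1 is chr5:99958277-99958306, stretch 2 is chr5:99958247-99958276 and stretch 3 is chr5:99960231-99960260, each read 5′ to 3′ on the minus strand from the GENCODE vM21 transcript.
Hnrnpd-211 stretch 1: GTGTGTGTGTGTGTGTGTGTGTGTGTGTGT
Hnrnpd-211 stretch 2: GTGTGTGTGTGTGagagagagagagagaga
Hnrnpd-211 stretch 3: tagttactactgaatTGTGTGTtaaTGTGT
They hold 26, 9 and 4 pentamers. Stretches 1 and 2 adjoin and share an alternating G and T run of 43 bases (chr5:99958264-99958306). A run as long occurs in the 3′ UTR of 208 of 13255 tested genes (1.57%) and of 1 of the 31 genes. Over the whole 3′ UTR, Hnrnpd-211 has 64 pentamers, 11.8 per kb, at percentile 90 of those 13255 genes by their longest 3′ UTR. The shorter 3′ UTRs of Hnrnpd-202 and Hnrnpd-203 (362 and 366 nt) hold 4 pentamers each, 11 and 10.9 per kb, and that of Hnrnpd-201 has 5.22 per kb. A match of letters is a description and no evidence of binding.

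The median over the longest 3′ UTRs of the 31 genes, Hnrnpd among them, was 5.22 per kb, against 4.7 per kb over 13255 genes, and 18 of 31 lay above the latter. All 31 held at least 1 pentamer, as did 88.5% of all. Hnrnpa1 followed Hnrnpd with 11.2 per kb, at percentile 89, and Hnrnpul1 was lowest with 0.924 per kb.

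Hnrnpa3-203 (ENSMUST00000111962), the Hnrnpa3 isoform with a long 3′ UTR, fell in CAD cells. It spans chr2:75659267-75669407 on the plus strand, and extends past the last exon of Hnrnpa3-202 by 3286 nt (chr2:75666122-75669407), with 15 of the pentamers (4.56 per kb). In CAD soma it went from 247, 295 and 265 CPM to 147, 172 and 179 CPM (log2 change -0.70, SE 0.0949, edgeR adjusted p = 0.00112). In CAD neurites it went from 386, 434 and 405 CPM to 277, 282 and 245 CPM (log2 change -0.61, SE 0.0948, edgeR adjusted p = 0.00212). No knockout culture reached the lowest wild-type culture, and the isoform's share of the gene's TPM went from 38.8% to 25.1% in soma and from 32.1% to 20.5% in neurites. Whichever replicate number was left out, the edgeR adjusted p-values were 0.0152 to 0.073. In N2A cells its share went from 34.8% to 29% in soma and from 28.8% to 25% in neurites, and its log2 changes of -0.091 and -0.37 did not pass in edgeR (adjusted p = 0.707 and 0.09). The share was 24.6% with the wild-type and 25.6% with the Q331K transgene in soma, and 21.7% and 23.7% in neurites.

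The gene sum of Hnrnpa3 depends on how its reads are divided. Without Hnrnpa3-203 the CAD soma change was 0.24 (SE 0.0765, edgeR adjusted p = 0.0236), and with counts scaled for length -0.075 (edgeR adjusted p = 0.527). Gm5641, a processed pseudogene of Hnrnpa3, shares much of its sequence, and moved the other way, from 106, 93.9 and 72.3 CPM to 140, 151 and 164 CPM in CAD soma (log2 change 0.74, edgeR adjusted p = 0.000236). It also rose in CAD neurites (log2 change 0.62, edgeR adjusted p = 0.000898) and in N2A soma, from 62.7, 78.7 and 73.5 CPM to 129, 155 and 139 CPM (log2 change 0.97, edgeR adjusted p = 1.24e-05). When the reads of gene and pseudogene were added, an alternative chosen after seeing the data, the log2 change was -0.073 (SE 0.0798, edgeR adjusted p = 0.562) in CAD soma and 0.028 (edgeR adjusted p = 0.824) in CAD neurites. The fall of Hnrnpa3 in CAD soma is therefore uncertain.

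Hnrnpa1, which encodes a splicing repressor and is the most abundant of the 31 RNAs in CAD soma, did not pass as a gene in any knockout comparison, while its isoforms moved in opposite directions in CAD cells. Hnrnpa1-201 carries a coding exon of 159 bases (chr15:103242922-103243080, plus strand) that Hnrnpa1-202 and Hnrnpa1-203 lack. Hnrnpa1-203 is annotated as subject to nonsense-mediated decay, and ends with exons at chr15:103246346-103246421 and chr15:103246545-103246692, downstream of the last exon of Hnrnpa1-202. Hnrnpa1-204, also annotated as subject to nonsense-mediated decay, has 1119 coding bases like Hnrnpa1-201 and ends at chr15:103246692 like Hnrnpa1-203. The 30 bases across the splice junctions are shown since they tell Hnrnpa1-201, Hnrnpa1-202 and Hnrnpa1-203 apart. Whether Hnrnpa1-204 shares them was not examined. The first 15 bases of the differing exon are in capitals.
Hnrnpa1-201, exon kept: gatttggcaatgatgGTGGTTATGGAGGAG
Hnrnpa1-202, exon skipped: gatttggcaatgatggaagcaattttggag
Hnrnpa1-203, downstream exon: attacatacagccagGAAGGAATCTGCTAT
Hnrnpa1-202, last exon: attacatacagccaggaaacaaagcttagc
They join bases 103242718 and 103242922, 103242718 and 103243625, 103244028 and 103246346, and 103244028 and 103244256 of chromosome 15. Of the 31-base words of Hnrnpa1, 29.9% occur in other genes, so its levels carry that uncertainty. The genes that share many of these words were given 0.0981% as many reads as Hnrnpa1 in CAD cells and 0.0671% in N2A cells.

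Hnrnpa1-201 fell from 49.9, 58.1 and 45.6 CPM to 15.2, 19.9 and 20.1 CPM in CAD soma (log2 change -1.48, SE 0.154, edgeR adjusted p = 0.000196). In CAD neurites it fell from 184, 212 and 150 CPM to 88.3, 89.8 and 74.2 CPM (log2 change -1.12, SE 0.151, edgeR adjusted p = 0.000905). The groups did not overlap in either compartment. Hnrnpa1-203 rose from 69.8, 62.3 and 68.1 CPM to 88.4, 104 and 106 CPM in CAD soma (log2 change 0.57, SE 0.0933, edgeR adjusted p = 0.00321), and from 109, 96.3 and 98.5 CPM to 186, 160 and 155 CPM in CAD neurites (log2 change 0.72, SE 0.0935, edgeR adjusted p = 0.000661). It also rose in N2A soma, from 50.5, 56.3 and 59.4 CPM to 86.8, 104 and 89 CPM (log2 change 0.75, SE 0.106, edgeR adjusted p = 0.00207), again without overlap. In N2A neurites it was at 149, 140 and 121 CPM against 161, 155 and 140 CPM (log2 change 0.15, edgeR adjusted p = 0.512). Hnrnpa1-201 had log2 changes of 0.56 in soma and -0.51 in neurites of N2A cells that did not pass (edgeR adjusted p = 0.283 and 0.373). Without replicate 2, the edgeR adjusted p-values of these called changes were 0.0205 to 0.188, without replicate 1 they were 0.00467 to 0.0304, and without replicate 3 0.0081 to 0.11.

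**Figure D3:**
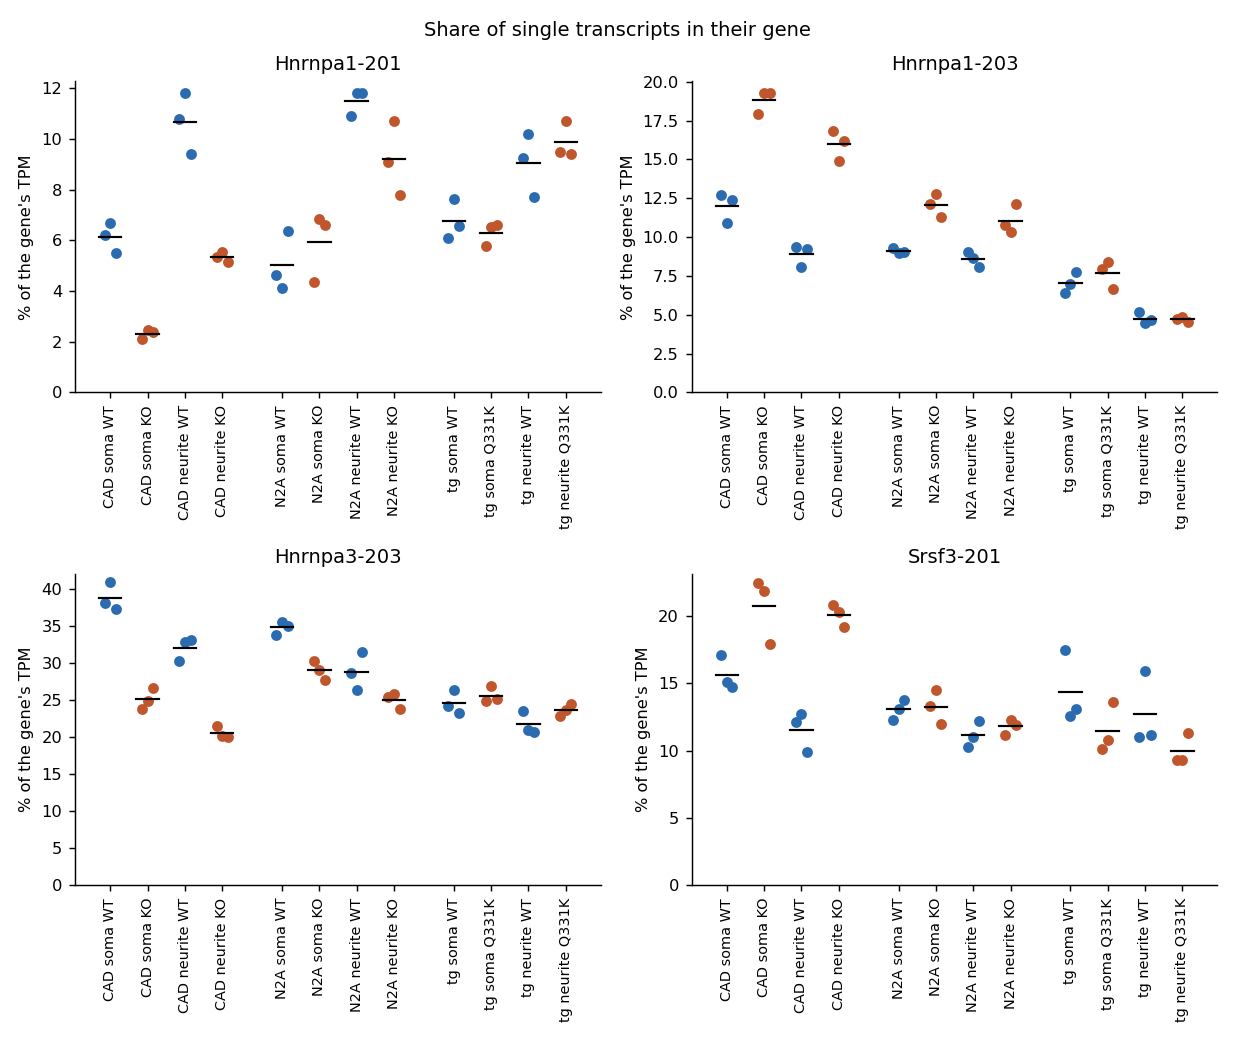
Share of Hnrnpa1-201, Hnrnpa1-203, Hnrnpa3-203 and Srsf3-201 in the TPM of their gene, in percent, in each library of the CAD, N2A and transgene (tg) experiments. Points are cultures (blue with wild-type TDP-43, orange knockout or Q331K) and bars are means of 3, and these isoforms were chosen for their change in the same CAD cultures, where knockout and wild-type points are separate in all 4 panels.

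The shares of these isoforms in the gene's TPM followed the counts. Hnrnpa1-201 went from 6.14% to 2.32% in CAD soma and from 10.7% to 5.36% in CAD neurites. Hnrnpa1-203 went from 12% to 18.8% and from 8.9% to 16% there, and from 9.09% to 12.1% in N2A soma and 8.59% to 11.1% in N2A neurites. With the transgenes, Hnrnpa1-203 was at 7.05% with wild-type and 7.67% with Q331K TDP-43 in soma.

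Srsf3, a small SR gene whose protein limits its own RNA through a poison exon, showed a rise of that isoform in CAD neurites. Srsf3-201 (ENSMUST00000037776, annotated as subject to nonsense-mediated decay) contains an exon of 456 bases at chr17:29039454-29039909, plus strand, that the protein-coding Srsf3-202 skips. The junctions with and without the exon are shown with the first 15 bases of the poison exon in capitals, and the window at chr17:29039471-29039500 with the annotated stop codon inside that exon in capitals.
Srsf3-201, poison exon kept: tccacctcggcgcagAGTCACCATCATGTC
Srsf3-202, poison exon skipped: tccacctcggcgcagatccccaagaaggag
Srsf3-201, stop codon: ttctcaccaccctcTGAatctgcattagcc
The kept exon joins base 29038624 to 29039454 of chromosome 17 and the skipped form joins 29038624 to 29040775. In CAD neurites Srsf3-201 rose from 28.7, 30.8 and 25.7 CPM to 56.5, 48.8 and 45.2 CPM (log2 change 0.82, SE 0.0944, edgeR adjusted p = 0.000311). The groups did not overlap, and whichever replicate number was left out, the edgeR adjusted p was 0.0127 to 0.0245. In CAD soma it was at 24.7, 23.8 and 23.6 CPM against 29.8, 33 and 29.6 CPM, which did not pass (log2 change 0.36, edgeR adjusted p = 0.0414). In N2A cells its log2 changes were 0.39 in soma and -0.0076 in neurites (edgeR adjusted p = 0.167 and 0.997).

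Srsf5-212, a retained-intron transcript of Srsf5, rose in CAD neurites from 45.1, 49.9 and 54.4 CPM to 89.3, 83.9 and 75.5 CPM (log2 change 0.73, SE 0.122, edgeR adjusted p = 0.00301). Its share of the gene's TPM went from 17.2% to 23.3%. In N2A neurites it was at 57.4, 66.7 and 58.8 CPM against 94.1, 77.7 and 89.3 CPM, without overlap, but with an edgeR adjusted p of 0.0302 (log2 change 0.51). Srsf5-207, another retained-intron form, went from 0.275, 0.474 and 0.87 CPM to 2.62, 2.05 and 2.42 CPM in CAD neurites (log2 change 2.11, edgeR adjusted p = 0.00576). Whichever replicate number was left out, the edgeR adjusted p-values of these calls were 0.0113 to 0.111.

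The other calls in CAD neurites concerned 3 protein-coding transcripts that rose with their gene, Hnrnpm-202 (log2 change 0.58), Hnrnpm-201 (0.47) and Hnrnpa2b1-201 (0.50), the processed transcripts Hnrnph1-213 (0.87), Hnrnph1-212 (0.64) and Srsf10-207 (0.71), and Hnrnpr-207. Hnrnpr encodes a protein known for binding axonal mRNAs, and the long-UTR isoform Hnrnpr-207 fell from 15, 16 and 15.4 CPM to 8.44, 8.95 and 9.1 CPM (log2 change -0.81, SE 0.143, edgeR adjusted p = 0.00435). In CAD soma, Hnrnpk-224 (log2 change 0.41), Hnrnpm-201 (0.40) and Hnrnpm-206 (0.91) rose, and the retained-intron transcript Hnrnpr-211 fell from 4.27, 5.03 and 3.28 CPM to 1.48, 1.72 and 1.35 CPM (log2 change -1.47, edgeR adjusted p = 0.00936). In N2A soma the transcript with the smallest p was Hnrnpll-205, which rose from 21.7, 19.6 and 22.1 CPM to 36.4, 35.9 and 41 CPM (log2 change 0.84, SE 0.0859, edgeR adjusted p = 0.000314). Hnrnpll encodes a splicing regulator related to hnRNP L. The protein-coding transcripts Hnrnpdl-202 (log2 change 0.57), Hnrnph1-201 (0.71), Hnrnpk-201 (0.58) and Hnrnpab-201 (0.62) also rose there. Each of these calls was lost whichever replicate number was left out, with edgeR adjusted p-values of 0.0127 to 0.293 and the same direction. With the replicate block, Hnrnpk-201 no longer passed in edgeR (adjusted p = 0.0105) and Hnrnpu-206 did (log2 change 0.49, adjusted p = 0.00526).

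The unproductive share, the reads on transcripts annotated as nonsense-mediated decay or retained intron relative to those on protein-coding transcripts, could be tested for 22 of the genes in CAD cells and 21 in N2A cells. In CAD neurites it rose for Hnrnpa1, Srsf3 and Srsf5 and fell for Hnrnpl, 4 of 22 genes against 3.77% of all 6229 genes. Percents here are of a gene's reads on unproductive and protein-coding transcripts together. Of these reads for Hnrnpa1, 12, 10.6 and 13.2% were unproductive in wild-type CAD neurites and 19.3, 17.2 and 19.1% in knockout CAD neurites (log2 change of the ratio 0.75, edgeR adjusted p = 1.99e-06). For Srsf3 they were 31.7, 31.4 and 28% against 42.9, 42 and 41.9% (0.75, edgeR adjusted p = 0.000744). For Srsf5 they were 25.3, 28 and 32.7% against 37.6, 36 and 37.2% (0.55, edgeR adjusted p = 0.00516). In each of the 3 genes every knockout culture lay above every wild-type culture. For Hnrnpl, whose protein binds CA-rich RNA, the share went down, from 15.6, 19.2 and 16.3% to 13.1, 11.6 and 12.7% (-0.51, edgeR adjusted p = 0.00128). Without replicate 2, the share of Hnrnpa1 alone still passed, and those of Srsf3, Srsf5 and Hnrnpl had edgeR adjusted p-values of 0.0459, 0.103 and 0.131. Without replicate 1, that of Srsf5 was 0.0844, and without replicate 3 that of Hnrnpl was 0.0261. With only nonsense-mediated decay transcripts counted as unproductive, Hnrnpl was at -0.53 and did not pass (edgeR adjusted p = 0.416).

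In CAD soma the unproductive share rose for Hnrnpa1, from 21.1, 20.7 and 22.2% to 27.7, 26.9 and 26.6% (log2 change of the ratio 0.46, edgeR adjusted p = 0.00406), and fell for Hnrnpa2b1, from 16.4, 18.7 and 14.2% to 12.4, 12.2 and 11.7% (-0.52, edgeR adjusted p = 0.00386). These were 2 of 22 genes, against 1.78% of all genes, and both calls were lost whichever replicate number was left out (edgeR adjusted p = 0.0176 to 0.193). With only nonsense-mediated decay transcripts counted as unproductive, Hnrnpa2b1 was at -0.045 (edgeR adjusted p = 0.99). In N2A neurites Srsf5 was the only one of 21 genes to pass, against 1.93% of all, from 24.3, 26.4 and 25.5% to 35.8, 31.7 and 42.1% (0.74, edgeR adjusted p = 0.00684). Hnrnpa1 there went from 10.8, 11.3 and 11.3% to 13.7, 13.7 and 16.7%, without overlap, and did not pass (0.44, edgeR adjusted p = 0.0204). In N2A soma the Hnrnpa1 ratio went the other way and was not called (-0.38, edgeR adjusted p = 0.0468). The ratios of Srsf3 and Srsf5 were also lower in knockout N2A soma and not called (-0.55 and -0.45, edgeR adjusted p = 0.0272 and 0.0758). The median change in N2A neurites was 0.27 over all 6208 genes, of which 91 were called higher and 29 lower, and 0.3 over the 21 genes. In CAD neurites the medians were 0.038 and 0.26. The Srsf5 call in N2A neurites was lost whichever replicate number was left out (edgeR adjusted p = 0.0322 to 0.167).

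In N2A soma the unproductive share fell for Hnrnpl (from 47.2, 51.8 and 45.7% to 36, 33.9 and 32.2%, log2 change of the ratio -0.86, edgeR adjusted p = 0.0013), Hnrnpk (from 5.35, 5.02 and 4.18% to 3.4, 1.9 and 1.91%, -1.06, edgeR adjusted p = 0.00316) and Hnrnpa2b1 (from 24.2, 28.8 and 23% to 21.4, 16 and 15.1%, -0.69, edgeR adjusted p = 0.00695). Hnrnpa2b1 did not pass with the replicate block (edgeR adjusted p = 0.0102), and its direction reversed when only nonsense-mediated decay transcripts were counted (0.53, edgeR adjusted p = 0.519). Counted that way, Hnrnpl (-0.65, edgeR adjusted p = 0.0518) and Hnrnpk (-0.58, edgeR adjusted p = 0.518) did not pass either. These falls went with a fall over the whole N2A soma. All 244 genes called there (3.93% of 6208) split into 6 higher and 238 lower, with a median of -0.6 over all genes and -0.45 over the 21. Of the reads on unproductive and protein-coding transcripts, 6.54 to 8.37% were unproductive in wild-type N2A soma and 4.98 to 6.47% in knockout N2A soma. Nuclear RNA markers summed to 970 to 3180 CPM in the former and 471 to 2240 CPM in the latter. The part of this difference in the 3 falls was not tested. Without replicate 2, none of the 3 passed (edgeR adjusted p = 0.135 to 0.342), and without replicate 3, Hnrnpk and Hnrnpa2b1 did not (0.0246 and 0.0558).

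**Figure D4:**
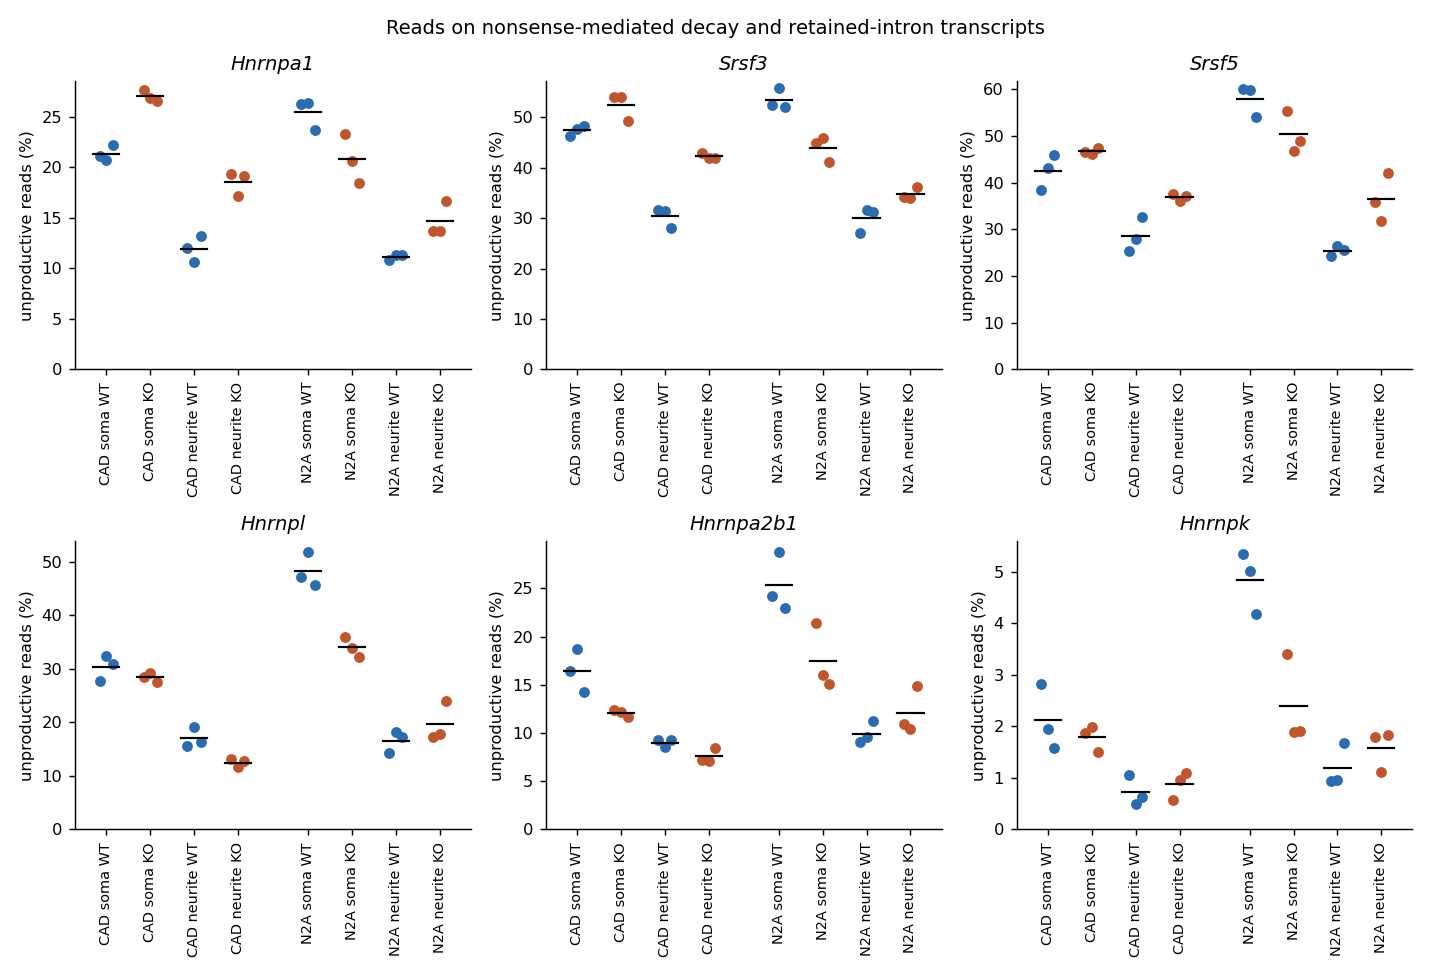
Percent of unproductive reads for the 6 genes past the threshold in any knockout comparison, in each CAD and N2A library. Unproductive reads, on transcripts annotated as nonsense-mediated decay or retained intron, are given relative to these and protein-coding reads together. Points are cultures (blue wild-type, orange knockout) and bars are means of 3, and the shares of Hnrnpa1 and Srsf5 in neurites are higher in every knockout culture than in every wild-type culture of the same line.

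In cells with wild-type TDP-43, the RNAs of these splicing factors leaned towards neurites, with more calls among the hnRNP than among the SR genes. Per length, Hnrnpa1 (738 TPM ± 134, SD, n = 3), Hnrnpab (556 ± 106), Hnrnpa2b1 (452 ± 88.4) and Hnrnph1 (410 ± 84.4) were the highest in wild-type CAD soma, and the ranges of neighbours in that order overlapped. Hnrnph3 (20.2 TPM ± 4) and Srsf12 (3.07 ± 0.739) were the lowest. In wild-type CAD cells 13 of the 31 genes were neurite-enriched and none was depleted, 10 of the 20 hnRNP genes and 3 of the 11 SR genes, while 23.7% of all genes were enriched and 17.7% depleted (41.3% in all). The highest LRs were those of Hnrnph3 (0.95, 0.98 and 0.88 in the 3 cultures, edgeR adjusted p = 1.79e-08), Hnrnpa1 (0.89, 0.82 and 0.73), Hnrnpc (0.68, 0.71 and 0.72), Hnrnpa3 (0.73, 0.57 and 0.54) and Hnrnpab (0.54, 0.62 and 0.45). The lowest were near 0 and not called, with fitted LRs of -0.12 for Srsf11, Hnrnpul2 and Hnrnpll, -0.08 for Hnrnpul1 and -0.071 for Srsf2. With at least 10 counts required in every library, Srsf11 (-0.22, edgeR adjusted p = 0.00507) and Hnrnpul2 (-0.22, edgeR adjusted p = 0.00575) were called depleted, and with length-scaled counts Srsf11 was (-0.34, edgeR adjusted p = 0.00177). Hnrnpll varied most between cultures, from -0.78 to 0.33.

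In wild-type N2A cells 21 of 30 genes were neurite-enriched and none was depleted, 16 of 20 hnRNP genes and 5 of 10 SR genes, against 32.5% of all genes enriched and 26.6% depleted (59.2% in all). The median LR was 0.52 over the 30 genes and -0.034 over all genes, and in CAD cells it was 0.17 and -0.02. Hnrnpab led (1.58, 1.37 and 1.24, edgeR adjusted p = 2.17e-08), before Hnrnpc (1.32, 1.15 and 1.1), Hnrnpf (1.38, 1.16 and 1.05), Hnrnpa1 (1.22, 1.02 and 0.91) and Srsf9 (1.24, 1 and 0.85). The lowest fitted LRs were -0.25 for Hnrnpll, -0.23 for Srsf2, -0.16 for Srsf11, 0.047 for Hnrnpl and 0.11 for Hnrnph1, none of them called. Srsf11 was called depleted with at least 10 counts in every library (-0.39, edgeR adjusted p = 0.000493) and with length-scaled counts (-0.52, edgeR adjusted p = 0.00124). Srsf2 was called depleted with DESeq2 (-0.29, adjusted p = 0.00291) and with at least 10 counts in every library (-0.46, edgeR adjusted p = 0.000255), and its LR was 0.14 with length-scaled counts (edgeR adjusted p = 0.122). In CAD cells with the wild-type transgene 7 of 31 genes (6 hnRNP and 1 SR) were enriched and none was depleted, against 14.9% and 12.6% of all genes (27.5% in all). They were Hnrnpa1 (0.77, 1.11 and 0.72, edgeR adjusted p = 5.34e-06), Hnrnpa3 (fitted LR 0.59), Hnrnph3 (0.57), Hnrnpc (0.40), Srsf3 (0.35), Hnrnpab (0.30) and Hnrnpdl (0.30), and the lowest were Hnrnpl (-0.15), Srsf2 (-0.11), Srsf4 (-0.058), Srsf6 (-0.05) and Hnrnpll (-0.04). All 7 were also called in wild-type CAD and in wild-type N2A cells. The RNAs known to stay in the nucleus had a median LR of -1.49 in CAD and -2.1 in N2A cells. With the wild-type transgene their median was -0.77 over 3 tested RNAs. Called depleted were 2 of 4 in CAD cells, 4 of 4 in N2A cells and none with the transgene.

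**Figure D5:**
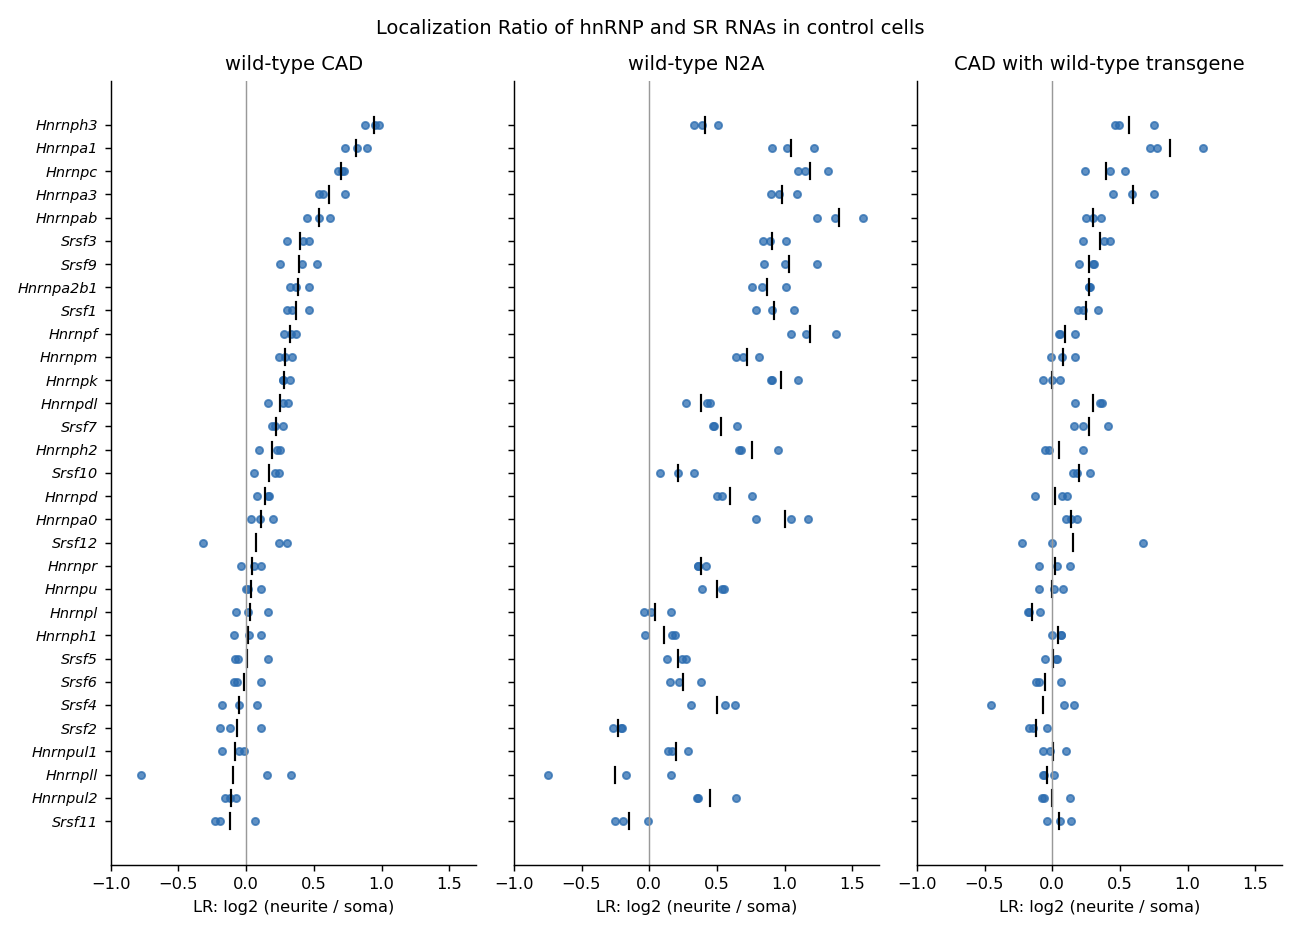
LR of each of the 31 genes, the log2 of the neurite over the soma level, in each culture of wild-type CAD, wild-type N2A and CAD cells with the wild-type transgene (points), with the mean as a bar (n = 3, ordered by wild-type CAD cells, Srsf12 not plotted in N2A). Hnrnph3, Hnrnpa1, Hnrnpc, Hnrnpa3 and Hnrnpab lie highest in CAD cells at mean LRs of 0.54 to 0.94, and most of the points in N2A cells lie to the right of 0.

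In the same control cells the unproductive share of these genes was mostly lower in neurites than in soma, in a test added after seeing the data. It was lower for 14 and higher for 1 of 22 genes in CAD cells, against 35.8% of all genes called (35.1% lower, 0.722% higher), and lower for 17 of 21 in N2A cells, against 61.3% (60.1% lower, 1.21% higher). The exception was Hnrnph3, with 39.3, 39.6 and 34.2% unproductive reads in soma and 56.5, 60 and 59.3% in neurites of wild-type CAD cells (log2 change of the ratio 1.23, edgeR adjusted p = 5.8e-05). In wild-type N2A cells its value was 0.41 and was not called (edgeR adjusted p = 0.142). It stood out in the same direction in CAD cells with the wild-type transgene (1.49, edgeR adjusted p = 0.00345), where 3 of 21 genes were lower in neurites and 2.49% of all genes were called. The median change was -1 over the 22 genes and -1.02 over all genes in CAD cells. It was -1.45 and -1.71 in N2A cells, and -0.55 and -0.5 with the wild-type transgene. The lower share in neurites was thus shared with genes in general.

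The Q331K transgene left no called change in these genes. None of 31 genes passed in soma or in neurites, and neither did any of the 13940 genes tested (0%). Log2 changes of Q331K over wild-type transgene ran from -0.32 to 0.15 in soma and from -0.29 to 0.1 in neurites, with 1 gene at an unadjusted edgeR p under 0.05 in each, against 7.14% and 9.84% of all genes, and DESeq2 called none. No LR change passed, with no unadjusted p under 0.05, against 4.34% of all genes. Of 183 transcripts none passed in edgeR in either compartment (0.00288% and 0.023% of all passed), and 10 in soma and 11 in neurites had an unadjusted p under 0.05, against 3.86% and 6.7% of all. DESeq2 called 2 in soma and none in neurites. In soma it called 0.508% of the 33059 transcripts to which it gave an adjusted p. Of 21 unproductive shares none passed (0% in soma and 0.166% in neurites over all genes), with 1 and 2 at an unadjusted edgeR p under 0.05, against 5% and 10.9% of all. Tardbp RNA was at 807, 786 and 714 CPM with the wild-type and 744, 723 and 806 CPM with the Q331K transgene in soma. These libraries were shallower, and the absence of a call does not show that the groups were alike.

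Related splicing genes, listed with earlier results of these data known, were counted in the same fits. Of 32 core spliceosome genes, 7 rose and 1 fell in CAD soma, 13 rose in CAD neurites, 17 rose and 1 fell in N2A soma and 1 rose in N2A neurites. Over all genes, 11.2% rose and 11.6% fell in CAD soma, 11.8% and 13.5% in CAD neurites and 10.9% and 5.15% in N2A soma, and 11.6% passed in either direction in N2A neurites. Cdc5l rose by 0.71 and Snrpa by 0.57 (log2) in CAD soma, and by 0.51 and 0.67 in N2A soma, where Snrnp70 fell (-0.51). The median control LR of the 32 genes was 0.29 in CAD cells, 0.88 in N2A cells and 0.044 with the wild-type transgene. Those of the 31 hnRNP and SR genes (30 in N2A cells) were 0.17, 0.52 and 0.086. Of 24 further RNA-binding protein genes, 3 rose and 2 fell in CAD soma, 4 and 2 in CAD neurites, 5 and 4 in N2A soma, and 2 and 1 in N2A neurites. Rbmx, an X-linked hnRNP G gene, rose by 0.57 and 0.81 in CAD soma and neurites and by 0.74 in N2A neurites. Among 6 tested kinases that phosphorylate SR proteins, Clk1 rose in CAD soma (0.39) and neurites (0.54), Clk4 rose in CAD neurites (0.42) and fell in N2A soma (-0.42), and these were the only calls. Of 10 nonsense-mediated decay factors, 3 rose in CAD soma, 3 rose and 1 fell in CAD neurites, and 1 rose and 1 fell in N2A soma as in N2A neurites. Upf3a rose in CAD soma (1.01), CAD neurites (0.83), N2A soma (0.71) and N2A neurites (0.7), Upf2 rose in CAD soma (0.44) and neurites (0.41), Upf1 fell in CAD neurites (-0.38, edgeR adjusted p = 0.00108), and Smg6 rose in CAD soma (0.32) and fell in N2A soma (-0.82) and neurites (-0.57). None of these lists had a called gene in the Q331K comparison.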

How the data were processed

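RNA-seq of soma and neurites was used from CAD, N2A and transgenic CAD cells. The human, MPRA, RBNS and SLAM-seq files were not used here. Per the labels and methods, the authors trimmed reads with cutadapt and quantified mm10 transcripts (Gencode version 17) with salmon. The values they deposited are, for every transcript, its TPM and its estimated count. Here estimated counts were summed to genes with GENCODE vM21 (GRCm38), with 0.074 to 0.129% of counts on transcripts of no gene left out, and rounded. Depth was 9783050 to 32895542 estimated counts per library.

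Levels are CPM after TMM scaling. Tests were edgeR 4.0.16 quasi-likelihood fits in R 4.3.3 of the 4 groups of an experiment (filterByExpr by group, Benjamini-Hochberg over all features, FDR of 0.01), for genes and transcripts, diffSpliceDGE for unproductive shares, and a joint fit of 24 libraries for differences between lines. LRs per culture used a prior count of 0.5. Intervals are the estimate ± 1.96 SE. DESeq2 1.42.0 and other settings were alternatives, and the fits were tested on simulated data. Motifs were counted in longest 3′ UTRs of at least 100 nt. Other steps used python 3.11.15, numpy 2.4.6, pandas 2.3.3 and matplotlib 3.10.9.

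Named are Tardbp, every gene, transcript or share past the FDR in a knockout or Q331K comparison (transcripts beyond the 10 of smallest p in each line more briefly), the 5 highest and 5 lowest control LRs per experiment, and up to 3 genes of each other list. One gene that this rule selects is not reported here. Gm5641, and the DESeq2 and block calls, were named after their values were seen. Members and lists were chosen with earlier results of these data known. Deviations from the group means were correlated between same-numbered libraries, and numbers were taken as pairing when each r was above 0.1. That held for the N2A soma libraries of the genotypes (r 0.123 to 0.549) and the CAD control soma and neurites (0.1 to 0.23, each above 0.1). It did not hold for the other 10 pairs of groups. The CAD soma libraries of the genotypes came close, at r 0.0893 to 0.482 with 2 of 3 above 0.1.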

Additional observations from a re-analysis of the deposited data

Results flagged for a closer look

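For 3 genes the effect of TDP-43 loss differed between the lines in a test of the difference itself, edgeR's interaction of genotype and line over 24 libraries. They were 2 of 31 genes in soma and 1 of 31 in neurites, while 10.5% of 19700 genes passed in soma and 9.18% in neurites. The N2A effect minus the CAD effect on Hnrnpab in soma was 0.58 on the log2 scale (SE 0.141, 95% interval 0.3 to 0.85, edgeR adjusted p = 0.00544). Its level went from 286, 335 and 341 CPM to 384, 489 and 492 CPM in N2A soma and from 630, 652 and 682 CPM to 591, 713 and 666 CPM in CAD soma. It did not pass without replicate 2 or 3 (edgeR adjusted p = 0.118 and 0.0847) or with length-scaled counts (0.0101).

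For Hnrnpr in soma the difference was 0.33 (SE 0.089, 95% interval 0.16 to 0.51, edgeR adjusted p = 0.00966). Hnrnpr went from 156, 159 and 150 CPM to 175, 173 and 162 CPM in N2A soma (log2 change 0.13, edgeR adjusted p = 0.181) and from 127, 133 and 122 CPM to 119, 115 and 118 CPM in CAD soma (-0.12, edgeR adjusted p = 0.118), so neither line passed on its own. The call was lost whichever replicate number was left out (edgeR adjusted p = 0.0334 to 0.283). It was also lost with RLE scaling (0.0302), no filter on low counts (0.0451), length-scaled counts (0.0452) and at least 10 counts in every library (0.125), and passed with DESeq2 (adjusted p = 0.00689) and with the replicate block.

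For Hnrnpm in neurites the difference was -0.47 (SE 0.0971, 95% interval -0.66 to -0.28, edgeR adjusted p = 0.00135). Hnrnpm went from 163, 154 and 154 CPM to 221, 221 and 210 CPM in CAD neurites and from 333, 324 and 308 CPM to 318, 305 and 308 CPM in N2A neurites. Without replicate 2 or 3, the edgeR adjusted p was 0.138 and 0.0245, and with no filter on low counts it was 0.0163.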

How the results depend on the processing

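The limits are 3 cultures per group, estimated counts split between overlapping isoforms and near-identical genes (66.2% of the 31-base words of Hnrnpf, 41% of Srsf4, 28.1% of Hnrnpa3 and 28.1% of Hnrnpab occur in other genes), and an annotation that may differ from that of the deposited quantification. In CAD cells, genes that share many words with these were given 0.296%, 6.46%, 23.1% and 1.67% as many reads. Hnrnpd and Hnrnpr share 5.62% and 8.51% of their words, but with genes given 1090% and 883% as many reads. The alternatives gave 238 counts of called members, of which 156 stayed within 1.5 times. Of 672 values of the named genes, transcripts and shares, 505 stayed on the same side of the threshold. Another 157 kept direction and no longer passed (134 of them with a replicate number left out), 7 newly passed and 3 that had passed reversed. A change of sign was counted as a reversal only for results that passed in the main fit. Some of the 505 therefore changed sign, such as the control LR of Srsf2 in N2A cells (-0.46 to 0.14). The reversals were Hnrnpa2b1 in N2A soma (unproductive share 0.53 when only nonsense-mediated decay transcripts counted) and, without the long isoforms Hnrnpd-211 and Hnrnpa3-203, Hnrnpd in CAD neurites (-0.055) and Hnrnpa3 in CAD soma (0.24). Unless stated, the cause of a change was not tested.

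Counts of genes were 4 in CAD soma (2 with no filter, 2 with length-scaled counts, 0 to 1 with a replicate number left out), 7 in CAD neurites (12 at an FDR of 0.05, 1 to 7 with a number left out), 2 in N2A soma (8 at 0.05, 10 with DESeq2, 4 with no filter, 7 with length-scaled counts, 5 with the replicate block, 0 to 1 with a number left out) and 0 in N2A neurites (5 at 0.05, 3 with DESeq2, 2 with at least 10 counts in every library, 1 with the block). LR changes were 0 in N2A cells (5 at 0.05, 9 with DESeq2, 2 with no filter). Control LRs were 13 in CAD cells (5 to 11 with a number left out), 21 in N2A cells (20 to 21) and 7 with the wild-type transgene (11 at 0.05, 2 to 5). Line differences were 2 in soma (9 at 0.05, 5 with DESeq2, 1 with RLE scaling, 1 with length-scaled counts, 5 with the block, 0 to 1 with a number left out) and 1 in neurites (2 at 0.05, 5 with DESeq2, 2 with RLE scaling, 4 with at least 10 counts, 0 to 1). RLE scaling moved the median of all genes by less than 0.1.

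Counts of transcripts were 8 in CAD soma (16 at 0.05, 16 with DESeq2, 14 with at least 10 counts, 0 to 2 with a number left out), 14 in CAD neurites (31, 30, 27 and 1 to 2), 6 in N2A soma (27, 30, 12 and 0), 0 in N2A neurites (7, 11, 4, and 1 with the block) and 0 in Q331K soma (2 with DESeq2). Unproductive shares were 2 in CAD soma (1 with nonsense-mediated decay transcripts only, 0 with a number left out), 4 in CAD neurites (9 at 0.05, 2 with decay transcripts only, 1 to 4), 3 in N2A soma (9, 0, and 0 to 4) and 1 in N2A neurites (3, 0, 0 with processed transcripts counted as unproductive, 2 with the block, 0 with a number left out). In the CAD knockout comparisons the numbers did not meet the pairing rule, and there the block left CAD soma at 4 and CAD neurites at 8 genes. With the culture as a block, the same 13 CAD and the same 21 N2A genes had a called control LR, and 10 with the wild-type transgene.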
